A study of Mus musculus with 4 samples.

Results

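The miRs described here are miR-223, miR-142a and miR-511, which are known as miRs of blood and myeloid cells. They were taken by name from a table of mature miRs in proangiogenic cells (PACs), with either arm of the hairpin (3p or 5p) allowed. This gave 6 members of the 568 miRs listed: miR-223-3p, miR-223-5p, miR-142a-3p, miR-142a-5p, miR-511-3p and miR-511-5p. PACs are bone marrow cells that adhere to fibronectin in endothelial growth medium and stain for lectin and for uptake of acetylated lipoprotein. They were isolated 2 days after hindlimb ischemia (removal of the femoral artery) and cultured for 4 days. The 4 libraries each hold the pooled RNA of several mice of 1 condition: CTL (C57Bl/6 mice of 2 months, a pool of 6), aging (C57Bl/6 mice of 16 months, a pool of 2), SMK (C57Bl/6 mice of 2 months, cigarette smoke from 14 days before surgery, a pool of 4) and HC (hypercholesterolemia; APOE-/- mice of 2 months, Western-type diet from 5 weeks before surgery, a pool of 4). These pool sizes are those of the sample labels. The methods give 4 to 6 samples per group, a range that the aging pool of 2 lies outside. The HC library differs from CTL in both genotype and diet, and the 2 cannot be told apart. With 1 library per condition there was no replicate spread, so no p-value was computed and every comparison below is between single libraries.

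A miR is cut from the stem of a hairpin RNA, which yields a 5p and a 3p strand. One strand usually enters an Argonaute protein and is kept, while the other is mostly degraded. The kept strand pairs through its seed (bases 2 to 8) with messenger RNAs, which are then repressed. miR-223 is made in granulocytes, monocytes and platelets and restrains the expansion and activation of neutrophils in mice. miR-142 is made throughout the blood lineage, lymphoid as well as myeloid, and both of its strands are known to act on targets. miR-511 lies in an intron of Mrc1, which encodes the mannose receptor of macrophages and dendritic cells.

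The sequences are shown because the seeds, the miR-142b overlap and the base composition described below are read from them. They come from RefSeq (build GRCm38.p6), in which 5 of the 6 members were found by name. Each is written 5′ to 3′ with the seed in capitals.
miR-223-3p: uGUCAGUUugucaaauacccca
miR-223-5p: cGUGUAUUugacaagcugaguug
miR-142a-3p: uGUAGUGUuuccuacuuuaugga
miR-142a-5p: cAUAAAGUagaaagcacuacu
miR-511-3p: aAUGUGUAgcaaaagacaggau
The 5 seeds all differ. None of the other mature mouse miRs in the RefSeq table of 1679 had any of these seeds (0 for each), and this covers the 485 of the 568 miRs of the RPM table that had a sequence.

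The hairpins are shown for miR-223 and miR-142a, the pair of miRs with both arms well counted, and here the capitals mark the mature arms (5p first, 3p second).
Mir223: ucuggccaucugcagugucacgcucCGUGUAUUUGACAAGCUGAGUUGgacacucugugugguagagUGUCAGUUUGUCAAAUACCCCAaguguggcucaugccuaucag
Mir142: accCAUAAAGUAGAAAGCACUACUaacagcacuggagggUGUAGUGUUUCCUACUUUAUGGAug
In GRCm38.p6, Mir223 lies on the plus strand of chrX:96242817-96242926, in exon 3 of F630028O10Rik, a noncoding RNA. Mir142 lies on the plus strand of chr11:87756864-87756927, in intron 1 of the noncoding RNA Mir142hg. It overlaps Mir142b on the minus strand (chr11:87756841-87756955). Mir511 lies on the plus strand of chr2:14261003-14261081, in intron 5 of Mrc1. The 3 loci are on different chromosomes.

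Levels are reads per 1000000 reads mapped (RPM) as the authors deposited them. Every value was a whole multiple of the smallest value of its library, so the counts behind the RPM could be recovered. The full 1000000 RPM corresponded to 2541732 counts in CTL, 1568958 with aging, 1670010 with SMK and 1038986 with HC. The miRs listed held from 99.0% (HC) to 99.6% (CTL) of these totals. A single count was worth between 0.393 RPM (CTL) and 0.962 RPM (HC). Intervals in brackets are exact 95% intervals (Poisson for a level, conditional binomial for a ratio of 2 levels) and cover counting error only, not differences between mice, pools or library preparations. Folds divide the RPM of a CRF (cardiovascular risk factor) library by that of CTL. A miR was compared when it had at least 100 RPM in either library, and counted as past a limit when its fold was under 0.8 or over 1.6. In pooled bulk RNA, a lower level from fewer cells of a type and one from less RNA per cell cannot be told apart.

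By RPM, the main strand of miR-223 was lowest in CTL and highest in HC. miR-223-3p measured 22760 RPM in CTL, 28832 RPM with aging, 31208 RPM with SMK and 37472 RPM with HC. The libraries thus stood in the order CTL, aging, SMK and HC, and all 3 pairs of neighbours in that order differed by more than counting error. miR-223-3p was the 11th most abundant miR of the CTL library, the 8th with aging, the 7th with SMK and the 6th with HC. Its folds were 1.27 with aging [1.251 to 1.28], 1.37 with SMK [1.36 to 1.39] and 1.65 with HC [1.63 to 1.67]. The HC fold alone was past 1.6, by a narrow margin.

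The other strand of miR-223 was far less abundant and moved less. miR-223-5p measured 507 RPM in CTL, 478 RPM with aging, 536 RPM with SMK and 597 RPM with HC. HC was again the highest library and aging the lowest, but the ratio of CTL to aging was 1.06 [0.969 to 1.16] and that of SMK to CTL was 1.06 [0.969 to 1.15], so neither of these neighbours was separated by counting. HC over SMK was 1.11 [1.003 to 1.23]. Its folds of 0.943, 1.06 and 1.18 in aging, SMK and HC all lay between the limits.

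**Figure D1:**
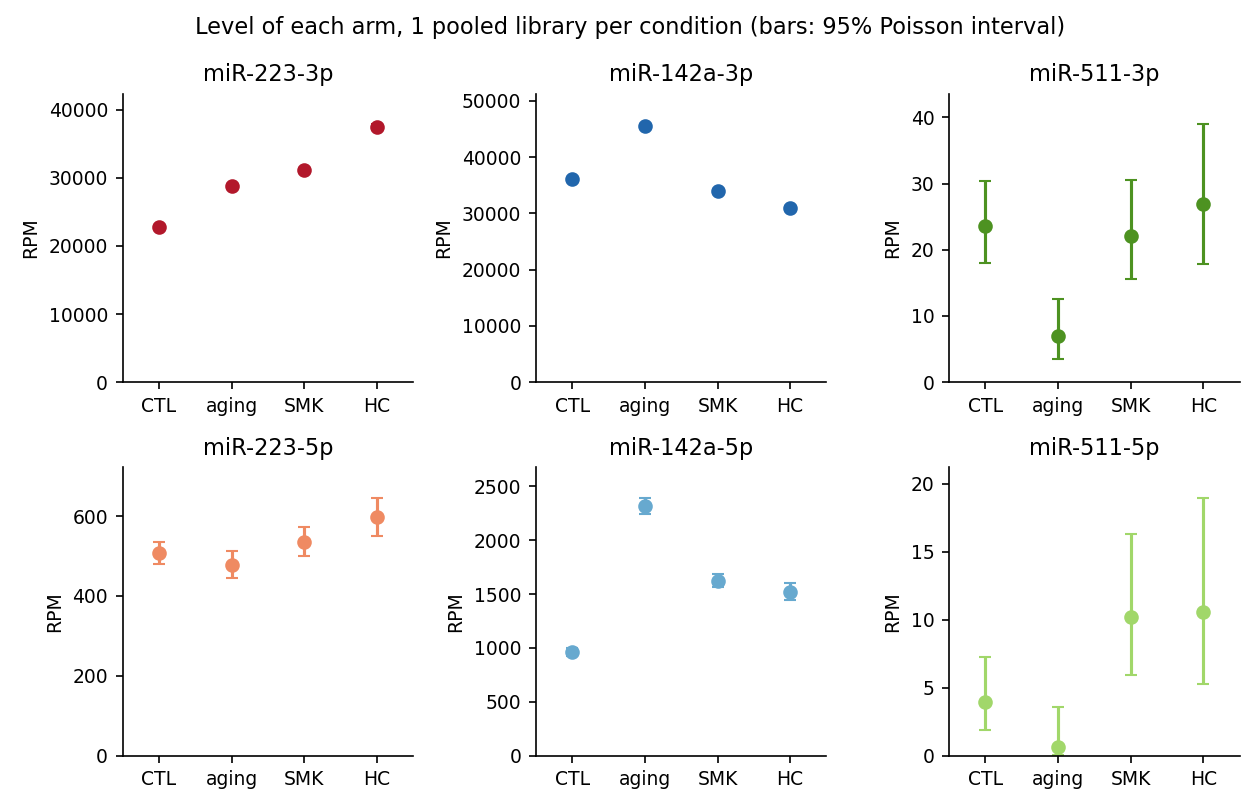
Level of each of the 6 members in RPM (y axis, from 0, a scale of its own in each panel) in the CTL, aging, SMK and HC libraries (x axis), with 1 point per pooled library and bars for the 95% Poisson interval of the counts, hidden by the point where narrow. miR-223-3p runs from 22760 RPM in CTL to 37472 RPM in HC, miR-142a-5p peaks at 2315 RPM in aging, and the miR-511 arms stay under 27 RPM with wide intervals.

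The main strand of miR-142a had another order of libraries. miR-142a-3p measured 36128 RPM in CTL, 45474 RPM with aging, 33972 RPM with SMK and 30954 RPM with HC. Aging was the highest library and HC the lowest, whereas HC was the highest for miR-223-3p. Its rank among all miRs was 6 in CTL, aging and SMK and 8 in HC. The folds were 1.26 with aging [1.246 to 1.27], 0.940 with SMK [0.931 to 0.9502] and 0.857 with HC [0.846 to 0.868]. All 3 lay between the limits although each interval excluded 1.

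The 5p strand of miR-142a had the largest fold in aging and in SMK among the 4 members that reached 100 RPM. miR-142a-5p measured 964 RPM in CTL, 2315 RPM with aging, 1623 RPM with SMK and 1522 RPM with HC. CTL was the lowest library by a wide gap, and aging was the highest. SMK and HC were close, with a ratio of 1.07 [1.002 to 1.14]. The folds were 2.40 with aging [2.28 to 2.53], 1.68 with SMK [1.59 to 1.78] and 1.58 with HC [1.48 to 1.68]. The SMK interval reached below 1.6 and the HC interval reached above it, so the call in SMK and its absence in HC lay within counting error of the limit.

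miR-511 was rare in all 4 libraries. miR-511-3p measured 23.6 RPM in CTL (60 counts), 7.01 RPM with aging (11 counts), 22.2 RPM with SMK (37 counts) and 26.9 RPM with HC (28 counts). Aging stood apart below the other libraries, and in the order SMK, CTL and HC no neighbours were separated by counting. The aging fold was 0.297 [0.141 to 0.570], against 0.939 in SMK [0.606 to 1.44] and 1.14 in HC [0.702 to 1.82]. miR-511-3p was under 100 RPM everywhere and therefore had no call. miR-511-5p measured 3.93 RPM in CTL (10 counts), 0.637 RPM with aging (1 count), 10.2 RPM with SMK (17 counts) and 10.6 RPM with HC (11 counts). It was also lowest in aging, at a single count, with a fold of 0.162 [0.00373 to 1.14]. A single count is the smallest value in the aging library, and none of the 568 miRs listed was absent from any library. Whether a listed single count stands for an absent miR cannot be told. The folds of miR-511-5p were 2.59 in SMK [1.119 to 6.32] and 2.69 in HC [1.04 to 7.07], with intervals that just excluded 1.

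Against the whole table, the members did not stand out by number. Of the 6 members, 4 reached 100 RPM in each comparison. In aging, 1 of these 4 was past the upper limit (miR-142a-5p) and 0 were past the lower limit, where 33.1% of the 154 miRs compared were past the upper limit and 26.6% past the lower limit. In SMK, 1 of 4 was past the upper limit (miR-142a-5p) and 0 were past the lower limit, against 20.5% and 14.4% of 146 miRs. In HC, 1 of 4 was past the upper limit (miR-223-3p) and 0 were past the lower limit, against 34.8% and 18.4% of 158 miRs. The median log2 fold of the 4 members was 0.34 with aging, 0.27 with SMK and 0.45 with HC, beside 0.24, 0.20 and 0.32 over all miRs compared. miR-142a-5p had the 26th highest fold in aging and the 28th in SMK, and miR-223-3p the 53rd in HC.

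**Figure D2:**
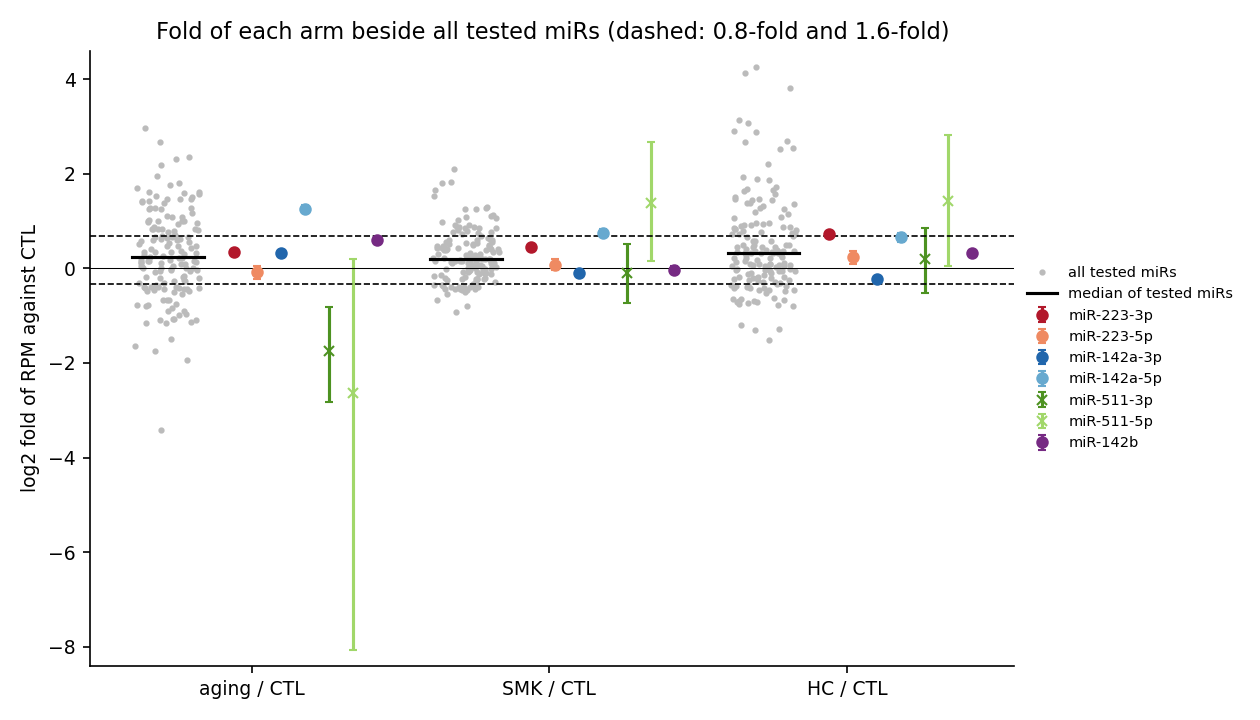
Log2 fold of RPM against CTL (y axis) in aging, SMK and HC (x axis) for the 6 members and miR-142b (coloured, bars for the 95% counting interval, crosses for members under 100 RPM), beside all miRs compared (grey, with their median as a black line). Dashed lines mark the 0.8-fold and 1.6-fold limits, and miR-142a-5p in aging (log2 fold 1.26) is the farthest above them of the members at 100 RPM or more.

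The calls depended on how the libraries were scaled. RPM is a share of the library, of which miR-21a-5p alone took between 267374 RPM (aging) and 313084 RPM (SMK). Scaling by the trimmed mean of log ratios shifted all log2 folds by -0.39 with aging, -0.24 with SMK and -0.43 with HC. On that scale miR-142a-5p was 1.83 with aging, still past the upper limit, but 1.43 with SMK, and miR-223-3p was 1.23 with HC, both between the limits. miR-223-3p and miR-142a-3p in aging then changed side of 1, to 0.965 and 0.959, while miR-223-5p in aging (0.718) and miR-142a-3p in SMK (0.799) and HC (0.638) were past the lower limit. The same scaling changed the split over all miRs compared from 41 lower and 51 higher to 64 and 31 with aging, from 21 and 30 to 39 and 17 with SMK, and from 29 and 55 to 67 and 33 with HC. By total reads, a scaling that multiplies RPM by the miR share of all reads, the HC values of miR-223-3p and miR-142a-5p were 1.02 and 0.975, the latter on the other side of 1. The fold of miR-142a-5p in aging was over 1.6 under every scaling tried, with a lowest value of 1.63.

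Ratios within a library do not depend on scaling, and here the hairpins of miR-142a and miR-223 differed in direction. For miR-142a, the 5p arm was 2.60% of the counts of both arms in CTL [2.497 to 2.70], 4.84% with aging [4.69 to 5.0001], 4.56% with SMK [4.39 to 4.73] and 4.69% with HC [4.46 to 4.92] (Clopper-Pearson). CTL stood below the other 3 libraries, which lay close together. The odds of 5p over 3p against CTL were 1.91 with aging [1.81 to 2.01], 1.79 with SMK [1.69 to 1.90] and 1.84 with HC [1.73 to 1.97]. For miR-223, the 5p arm was 2.18% in CTL [2.06 to 2.30], 1.63% with aging [1.52 to 1.75], 1.69% with SMK [1.58 to 1.80] and 1.57% with HC [1.45 to 1.69]. CTL stood above the other 3, which again lay close together. The odds were 0.744 with aging [0.679 to 0.816], 0.771 with SMK [0.706 to 0.841] and 0.715 with HC [0.648 to 0.788]. All 3 comparisons share the CTL library. That library also had the highest total of counts behind the RPM (2541732, against 1038986 to 1670010 in the others) and the highest miR share of all reads. A difference of the CTL library alone and one shared by the other 3 conditions cannot be told apart. For miR-511, the 5p share was 14.3% of 70 counts in CTL, 8.33% of 12 with aging, 31.5% of 54 with SMK and 28.2% of 39 with HC. Only in SMK did the interval of the odds exclude 1 (2.76 [1.05 to 7.46]).

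**Figure D3:**
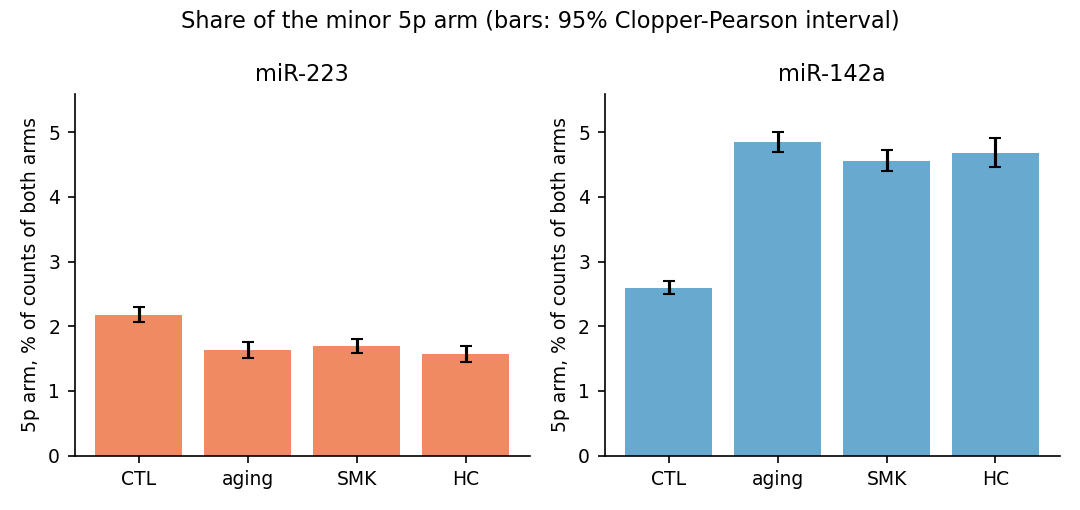
Share of the 5p arm in the counts of both arms, in percent (y axis, from 0), for miR-223 and miR-142a in the 4 libraries (x axis), with error bars for the 95% Clopper-Pearson interval. The miR-142a share is 2.60% in CTL and between 4.56% and 4.84% in the other libraries, and the miR-223 share is 2.18% in CTL and between 1.57% and 1.69% in the others.

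Shifts of this size were not rare among other hairpins. There were 36 hairpins with at least 30 counts of each arm in every library, a set chosen after the member values had been seen. The log2 change of the minor over the main arm had a median of -0.08 with aging, 0.17 with SMK and 0.13 with HC. In these 36, the minor arm gained on CTL in all 3 libraries in 12 hairpins, miR-142a among them, and lost in all 3 in 10, miR-223 among them. The gain of miR-142a (0.93, 0.84 and 0.88 in aging, SMK and HC) ranked 6, 8 and 8 of 36 from the top. The change of miR-223 (-0.43, -0.38 and -0.48) ranked 28, 29 and 28.

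**Figure D4:**
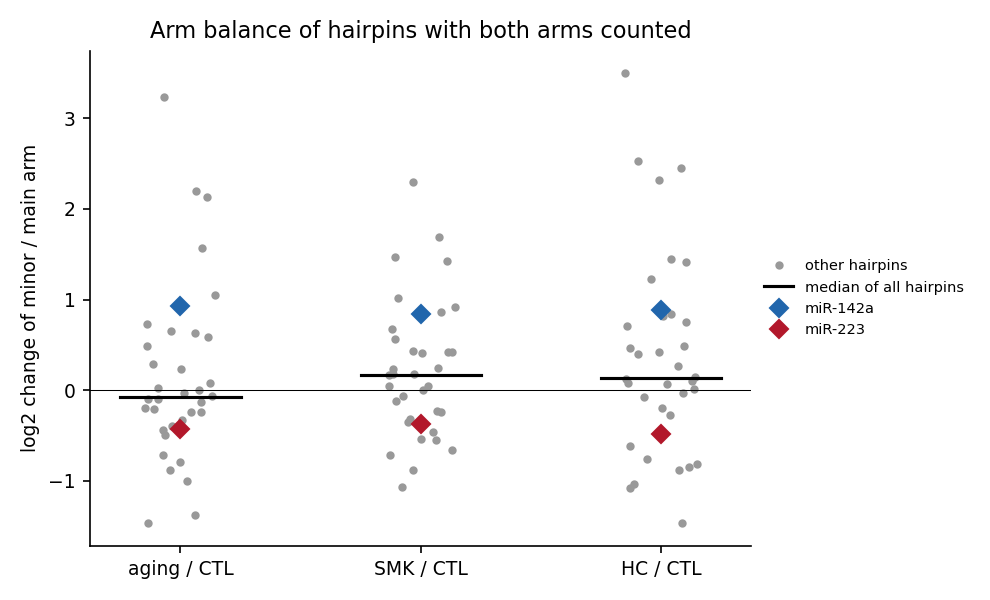
Log2 change against CTL of the ratio of minor to main arm (y axis) in aging, SMK and HC (x axis) for 36 hairpins, with miR-142a (blue) and miR-223 (red) as diamonds, the other hairpins in grey and the median as a black line. miR-142a lies between 0.84 and 0.93 and miR-223 between -0.48 and -0.38, both inside the range of the other hairpins.

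The balance between miR-223 and miR-142a also differed between libraries. miR-223-3p over miR-142a-3p was 0.630 in CTL, 0.634 with aging, 0.919 with SMK and 1.21 with HC. CTL and aging were not separated by counting (odds ratio 1.01 [0.991 to 1.02]), while the ratio was 1.46 times that of CTL in SMK [1.44 to 1.48] and 1.92 times in HC [1.89 to 1.96]. HC was the only one of the 4 libraries with more counts of miR-223-3p than of miR-142a-3p. These ratios compare libraries and not molecules per cell, since the capture of each sequence was not calibrated. miR-223-3p and miR-142a-3p also differ in GC content (40.9% and 34.8%). Across the miRs compared, the log2 fold was higher at higher GC content, and these ratios were not corrected for it. For the minor arms the ratio was instead highest in CTL, with miR-223-5p over miR-142a-5p at 0.526 in CTL, 0.206 with aging, 0.330 with SMK and 0.392 with HC. The 6 members together made up 7.71% of the aging library, 7.06% of HC, 6.74% of SMK and 6.04% of CTL. Within that sum, miR-223 supplied 38.5% in CTL, 38.0% with aging, 47.1% with SMK and 53.9% with HC, and miR-511 at most 0.0532%.

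miR-142b, a miR of the opposite strand of the Mir142 locus, limits what can be said of miR-142a-5p. Its sequence is shown because it is the reverse complement of bases 4 to 23 of miR-142a-3p and therefore resembles miR-142a-5p, the strand that pairs with miR-142a-3p.
miR-142b: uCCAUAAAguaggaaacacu
Aligned from base 3 of miR-142b, the 2 miRs share 18 positions with 2 mismatches, A11G and G14A (base of miR-142a-5p first, position counted from its 5′ end, base of miR-142b last). According to the methods, perfect matches to mature miRs were assigned first, and only unmapped sequences went on to later steps. The last step tolerated up to 2 mismatches, so it concerned reads without such a perfect match. Whether counts passed between the 2 miRs was not tested. miR-142b measured 1507 RPM in CTL, 2268 RPM with aging, 1480 RPM with SMK and 1875 RPM with HC. Its folds of 1.51, 0.982 and 1.24 in aging, SMK and HC lay between the limits, and SMK and CTL were not separated by counting. The 2 miRs added together had folds of 1.86 with aging [1.79 to 1.92], 1.26 with SMK [1.21 to 1.30] and 1.37 with HC [1.32 to 1.43]. With miR-142b included, the aging value was still past the upper limit and the SMK value was not.

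Markers of other cell types differed between the same libraries, and their part in the member values was not tested. The endothelial list, miR-126a-3p and miR-126a-5p from an intron of Egfl7, summed to 29076 RPM in CTL, 13795 with aging, 33683 with SMK and 18424 with HC. Both were past the lower limit in aging and in HC, and neither was past a limit in SMK, under each of the 4 other scalings as well. The mesenchymal list, led by miR-143-3p and miR-199a-3p/miR-199b-3p, summed to 38076 RPM in CTL, 12987 with aging, 33232 with SMK and 24223 with HC over 14 listed miRs. Of 8 that could be compared, 8 were past the lower limit with aging, 3 with SMK (with 1 past the upper, miR-10b-5p) and 5 with HC. By the trimmed mean these counts were 8, 5 (with 0 past the upper) and 8. Not all listed miRs under 100 RPM were lower. miR-214-3p had folds of 2.14 with aging, 3.18 with SMK and 3.49 with HC, from 26.8 RPM in CTL. With aging, miR-708-5p (1.56) was also above CTL, and the rest of the listed miRs under 100 RPM were below it. The lymphoid list summed to 2417 RPM in CTL, 5242 with aging, 5116 with SMK and 6815 with HC. Its 3 compared miRs, miR-342-3p, miR-181a-5p and miR-181b-5p, were past the upper limit in all 3 comparisons, but by the trimmed mean 2 were past it with aging and 1 each with SMK and HC. miR-150-5p of mature lymphocytes was at 35.6 to 43.1 RPM throughout. miR-342-5p, the other arm of the miR-342 hairpin, did not rise with miR-342-3p. It was at 18.5 RPM in CTL, with folds of 0.965 with aging, 0.648 with SMK and 0.625 with HC. The erythroid list was low, with sums from 47.8 RPM in aging to 283 RPM in HC over 4 miRs, with a single miR that could be compared (miR-486b-5p in HC, past the upper limit), and miR-451a, the most specific of them, was at 2.55 to 52.0 RPM.

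Other miRs of myeloid and inflamed cells did not share 1 pattern. The list of 15 summed to 353071 RPM in CTL, 317460 with aging, 356675 with SMK and 327428 with HC, most of it miR-21a-5p, a miR that inflammatory signals induce. Of 12 that could be compared, 0 were past the lower limit and 3 past the upper with aging, 2 and 4 with SMK, and 0 and 4 with HC. By the trimmed mean they were 4 and 2, 3 and 1, and 6 and 1 in the same order. Their median log2 fold was 0.26 with aging, 0.22 with SMK and 0.15 with HC. miR-23a-3p and miR-24-3p were past the upper limit in each comparison, with folds of 2.43 and 2.11 with aging, 1.69 and 1.84 with SMK and 1.88 and 1.83 with HC. miR-27a-3p was past no limit, with folds of 1.42, 1.18 and 0.967. miR-125a-5p had a fold of 1.58 in aging and was past the upper limit in SMK (2.04) and HC (2.99). miR-146a-5p, a brake on NF-κB signalling, had folds of 0.878, 0.761 and 1.06.

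The miRs closest to each member were found among 160 others with at least 100 RPM in a library, by the root mean square difference of the 3 log2 folds. miR-362-3p was closest to miR-223-3p (difference 0.08), with folds of 1.24 with aging, 1.41 with SMK and 1.79 with HC. It was followed by miR-99a-5p (0.13) and by miR-362-5p, the other arm of the miR-362 hairpin (0.14). miR-223-5p was closest to miR-93-5p, a miR of a cluster in an intron of Mcm7 (0.08), let-7e-5p (0.09) and miR-3967 (0.09). miR-142a-3p was closest to miR-181a-1-3p, the minor arm of a miR-181a hairpin (0.12), miR-34a-5p, a p53 target (0.16), and miR-146b-5p (0.18). miR-142a-5p was closest to miR-326-3p (0.14), miR-23a-3p (0.15) and miR-24-3p (0.18). Neither arm of miR-142a or miR-223 was among the 3 miRs closest to its partner arm.

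The members lay below the median GC content of the miRs compared. Their GC content was 33.3% for miR-142a-5p, 34.8% for miR-142a-3p, 36.4% for miR-511-3p, 40.9% for miR-223-3p and 43.5% for miR-223-5p, beside a median of 45.5% over the miRs compared that had a sequence. Across those miRs, the log2 fold was higher where the GC content was higher. Pearson's r was 0.37 in aging over 136 miRs, 0.47 in SMK over 130 and 0.56 in HC over 139, and Spearman's rho was 0.40, 0.49 and 0.53. These are descriptions across miRs of the same pair of libraries, which share the CTL library and its depth. miR-142a-5p and miR-223-3p lay above the fitted line in all 3 comparisons. With the whole linear trend on GC content removed, which also centres the log2 folds at 0, the folds of miR-142a-5p were 2.71 with aging, 1.77 with SMK and 1.90 with HC, and miR-223-3p was 1.49 in HC, no longer past the limit. With the slope alone removed and the level at the median GC content kept, the folds of miR-142a-5p were 3.22 with aging, 2.09 with SMK and 2.49 with HC, all past the upper limit. On this second scale miR-142a-3p was 1.63, 1.14 and 1.28 and miR-223-3p was 1.41, 1.49 and 1.95, so that miR-142a-3p in SMK and HC changed side of 1. The second scale was chosen after the data had been seen. Removing the GC trend also changed the balance of miR-223-3p and miR-142a-3p. By RPM their folds with aging were alike (1.27 and 1.26). With the whole trend removed, miR-223-3p had the smaller fold with aging (1.19 against 1.37). It kept the larger fold with SMK (1.26 against 0.964) and HC (1.49 against 0.977), by a smaller margin than by RPM.

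**Figure D5:**
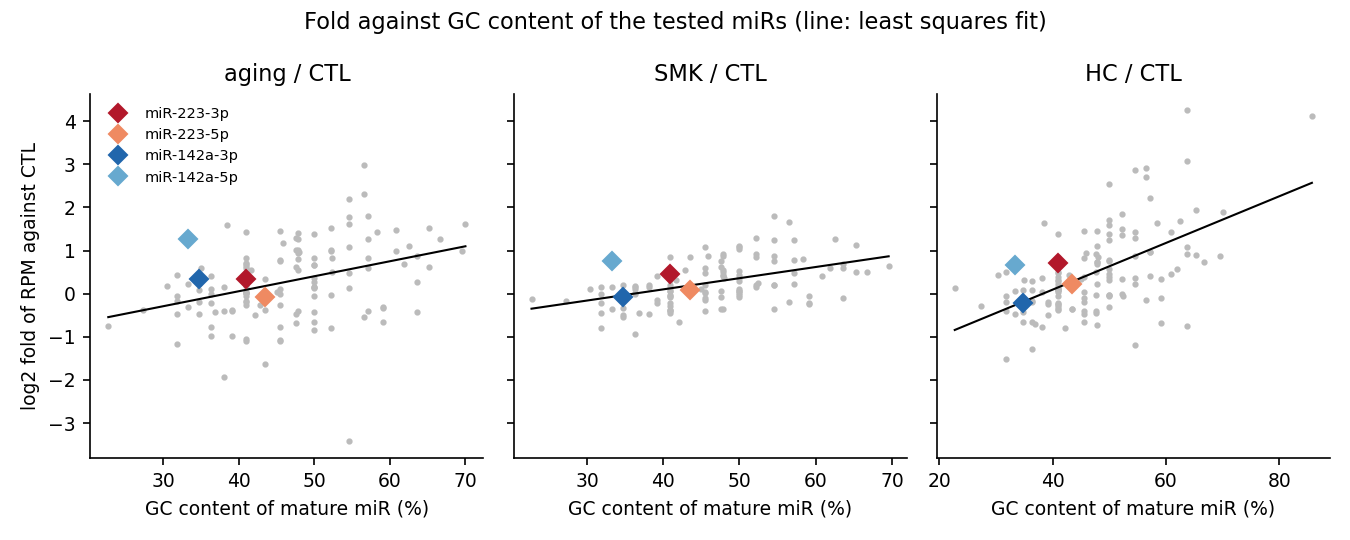
Log2 fold of RPM against CTL (y axis) by GC content of the mature miR in percent (x axis) for the miRs compared that have a sequence (136 with aging, 130 with SMK, 139 with HC), with the 4 members at 100 RPM or more as coloured diamonds and a least squares line. The line rises in each panel, and miR-142a-5p (33.3% GC) and miR-223-3p (40.9% GC) lie above it in all 3.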

How the data were processed

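MiRs were measured by small RNA sequencing in 4 pooled libraries, 1 per condition. According to the methods, libraries were prepared with a QIAseq kit, sequenced on a NextSeq instrument and mapped in steps with bowtie to mature miRs of miRBase release 21, hairpins, other RNAs and the genome. The submitters' processing notes name bcl2fastq 2.20, TopHat2 2.0.10 and HTSeq 0.5.4, and these accounts were not reconciled. The authors normalized to library size and deposited RPM. Dividing by the smallest value of a library gave whole counts for 100% of values (tolerance 0.001). Whether counts are reads or merged molecular identifiers is not stated in the sources used here. In every library they summed to less than the miR reads of the study's read summary, and how they relate was not tested. The scaling by total reads takes its miR share from those reads and not from the counts.

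Folds, exact intervals and odds ratios were computed in Python 3.11.15 (pandas 2.3.3, scipy 1.17.1, numpy 2.4.6; plots with matplotlib 3.10.9), and the trimmed mean in R 4.3.3 with edgeR 4.0.16. The functions were tested on simulated data. The 100 RPM minimum and the limits of 0.8 and 1.6 follow the methods. Sequences come from RefSeq and hosts from GENCODE release M21, and 485 of the 568 miRs had a mature sequence. The miRs named were every member, the 3 miRs closest to each member at 100 RPM or more, and at most 4 of each cell type list, with miR-142b, miR-27a-3p and miR-125a-5p added after their values were seen. Members and lists were chosen with earlier results of these data known. Alternatives were other scalings (one by total reads), pseudocounts, minimum levels, limits and GC correction. The study's read summary was used only for the scaling by total reads and to compare its miR reads with the counts and with all reads. Raw reads were not analysed here.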

Additional observations from a re-analysis of the deposited data

How the results depend on the processing

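No paired analysis was possible because each condition had 1 library, and for the same reason no replicate could be left out. The median ratio of 123 miRs shifted all log2 folds by -0.15 with aging, -0.16 with SMK and -0.15 with HC, scaling by total reads by -0.56, -0.43 and -0.70, and totals without miR-21a-5p by -0.09, 0.01 and -0.07. The number of members past a limit, 1 in each comparison, was 0 in SMK by the median ratio, 0 in HC by totals without miR-21a-5p, 2 in aging by the trimmed mean, and 2 with aging, 2 with SMK and 2 with HC by total reads. It was 3 with aging, 2 with SMK and 2 with HC with no minimum level, which brings in miR-511, and likewise 3, 2 and 2 with limits of 0.8 and its inverse. With limits of 0.6 and 2 it was 0 in SMK and 0 in HC. It was 0 in SMK with the whole interval required past a limit or with miR-142b added, and 2 in aging and 2 in HC with the GC slope removed, alternatives of which the miR-142b sum and the GC slope were chosen after the data had been seen. A count of 1 could also be another miR: in HC it was miR-142a-3p, past the lower limit, by the median ratio or the trimmed mean, and miR-142a-5p with the whole GC trend removed, and in SMK it was miR-142a-3p, past the lower limit, by the trimmed mean. miR-142a-5p in aging was past the upper limit under every alternative, with folds from 1.63 to 3.22. The HC fold of miR-223-3p ranged from 1.02 to 1.95 and that of miR-142a-5p from 0.975 to 2.49. With a minimum of 10 RPM, 1 of the 3 closest miRs was shared for miR-223-3p and for miR-142a-3p and 2 for the 5p arms. The causes were not tested. Depth limited miR-511 most, with 1 to 60 counts per arm and library.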

Other observations

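Taken as 1 locus, the counts of miR-142a-5p and miR-142b were 6.40% of all counts of miR-142a-3p, miR-142a-5p and miR-142b in CTL, 9.16% with aging, 8.37% with SMK and 9.89% with HC. miR-142b over miR-142a-3p was 1.20 times its CTL value with aging [1.14 to 1.253], 1.04 times with SMK [0.992 to 1.10] and 1.45 times with HC [1.37 to 1.54]. miR-142b over miR-142a-5p was 0.627 times its CTL value with aging [0.585 to 0.671]. That ratio was 0.583 times CTL with SMK [0.541 to 0.629] and 0.788 times with HC [0.724 to 0.857]. The counts listed as miR-142b thus did not keep pace with those of miR-142a-5p in aging, SMK or HC. Whether counts passed between these miRs was not tested. In aging, miR-511-3p was also low relative to miR-223-5p, a more abundant myeloid arm of the same library: miR-511-3p over miR-223-5p was 0.315 times its CTL value [0.148 to 0.610], against 0.888 in SMK [0.568 to 1.37] and 0.970 in HC [0.590 to 1.56].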
